A study of Rattus norvegicus with 24 samples.

Results

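JQ1 given alone for 24 h to cultured striatal neurons was compared with its vehicle, DMSO, given for the same time. The comparison comprised 4 of the 23 libraries analysed, 2 from JQ1 cultures and 2 from DMSO cultures, chosen by their labels and not by any measured value. All were rRNA-depleted total RNA libraries from primary neurons of the neonatal rat striatum on day 7 in vitro. The labelled JQ1 treatment pairs it with DMSO in the place that SKF, a D1 dopamine receptor agonist, takes in other groups, and the DMSO cultures received DMSO in both places. The labels give no dose. They also leave unsaid if replicate libraries stem from different cultures, and the p-values then reflect no more than the variation among the libraries at hand, possibly technical. Beside this comparison stand SKF plus JQ1 against SKF at 24 h (2 libraries each, same experiment) and JQ1 against DMSO at 60 min (2 libraries each, another experiment).

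JQ1 is a small molecule that occupies the acetyl-lysine pockets of the BET family of bromodomain proteins. BET proteins read acetylated histones and help to recruit P-TEFb, the kinase of CDK9 and cyclin T that releases paused RNA polymerase II into elongation. P-TEFb is held inactive by HEXIM proteins on the 7SK RNA, and a rise of Hexim1 is a widely used marker of BET inhibition. The striatum consists mostly of GABAergic projection neurons that carry the D1 or the D2 dopamine receptor, and cultures of it also hold interneurons and some glia.

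Aligned bases came to 6.48 and 8.87 gigabases in the JQ1 libraries, and to 8.31 and 14.9 gigabases in the DMSO libraries. Mitochondrial transcripts took 13.3% and 12.9% of the bases assigned to transcripts in the JQ1 libraries, against 10.6% and 11.9% in the DMSO libraries. Values are FPKM (fragments per kilobase of transcript and of library size) summed over the transcripts of a gene and divided by a size factor of the library. Changes are log2(FPKM + 0.5) of JQ1 minus DMSO with their standard errors (SE) from limma, tested over 13999 genes with Benjamini-Hochberg adjustment. A gene is said to have risen or fallen where the adjusted p was under 0.05. Defining neuronal genes were abundant in every library: Gad1, which makes GABA, had 379 and 399 FPKM with JQ1 and 368 and 396 FPKM with DMSO.

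After 24 h of JQ1 many genes differed from DMSO, most of them by less than 2-fold, and the large changes were mostly falls in which myeloid genes led. Hexim1 and histone genes were among the large rises, and glutamate receptor genes fell by smaller steps. Of the 13999 genes tested 7842 were called (56.0%), 3553 of them higher (25.4%) and 4289 lower (30.6%) with JQ1. On FPKM as deposited, without size factors, the split was 2588 higher and 4963 lower, and the median change of all genes was −0.08 in place of −0.02. The JQ1 and DMSO libraries did not overlap for 76.7% of all genes tested. Most genes named below were chosen by large change without overlap or by smallest p. Statements that their groups lay apart are therefore description and no further support. Changes of at least 2-fold were fewer and mostly downward: 78 genes rose by at least 1 on the log2 scale (0.557%) and 528 fell by at least 1 (3.77%). Of the 78 rises 15 were on the list of histone genes, which was matched by symbol and is not complete. Of the 528 falls 14 were on the list of microglia and myeloid markers.

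**Figure D1:**
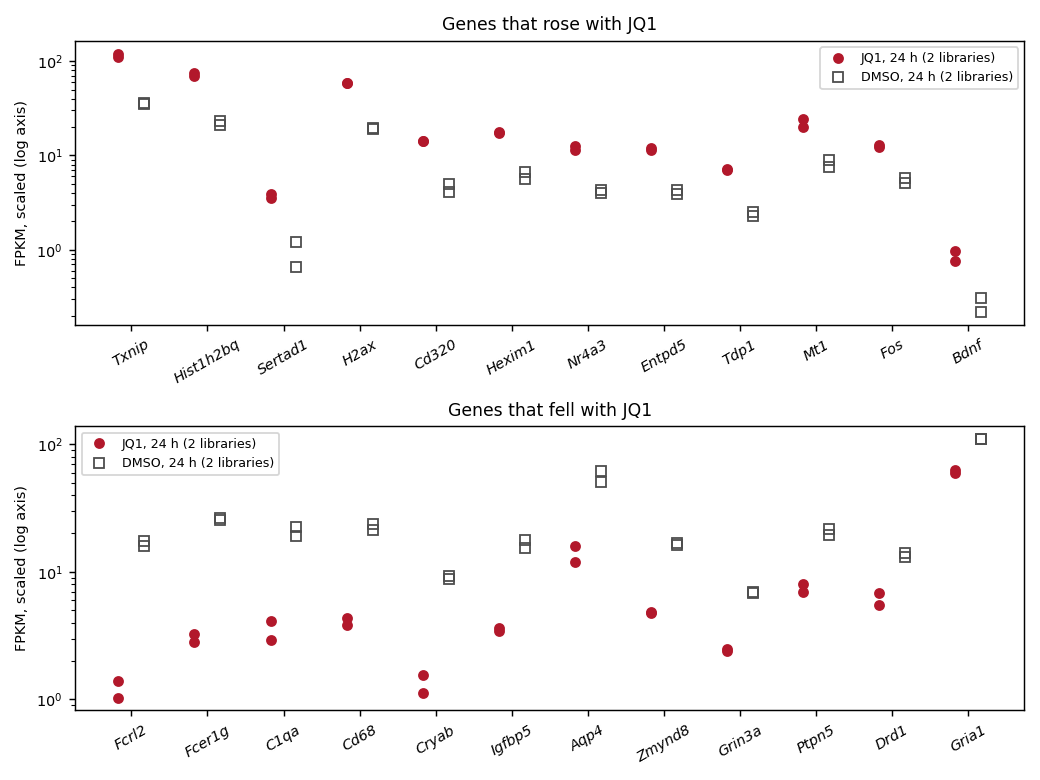
FPKM (scaled, log axis) of 12 genes that rose and 12 that fell with JQ1 at 24 h, 1 point for each library, JQ1 left of DMSO. For none of these 24 genes do the 2 JQ1 points overlap the 2 DMSO points, as for 76.7% of all genes tested. Most were named by rules that require or favour this.

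Genes often used as readouts of BET inhibition, Hexim1 and Txnip among them, rose. Hexim1 (chromosome 10, 91200874 to 91202984, Rnor_6.0, 1 exon) had 17.1 and 17.7 FPKM with JQ1, against 6.68 and 5.57 FPKM with DMSO. Both JQ1 libraries stood well above both DMSO libraries, a log2 change of 1.44 ± 0.09 (limma adjusted p = 1.3e-09). Txnip (chromosome 2, 198683159 to 198686974), whose product binds thioredoxin and limits glucose uptake, had 120 and 111 FPKM with JQ1, against 35.9 and 35.0 FPKM with DMSO (1.69 ± 0.14). Arrdc4, an arrestin-domain relative of Txnip, rose by 0.67 ± 0.08 on the log2 scale. Sertad1, a regulator of CDK4 and E2F, had 3.87 and 3.58 FPKM with JQ1 and 1.22 and 0.663 FPKM with DMSO (1.58 ± 0.15). Zmynd8, which encodes a bromodomain protein that reads acetylated and methylated histone tails, changed the other way. It had 4.76 and 4.86 FPKM with JQ1, against 16.3 and 16.8 FPKM with DMSO, a fall of 1.68 on the log2 scale (SE 0.06, adjusted p = 1.6e-12). Of the 11 genes on the list of reported BET inhibitor responses 7 rose and 2 fell (81.8% called, beside 56.0% of all genes). Their median was 0.32, beside −0.02 for all genes tested.

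The machinery that JQ1 acts on moved by smaller steps. Of 14 BET and P-TEFb genes tested 7 rose and 2 fell, with a median of 0.24. Their called share was 64.3%, beside 56.0% of all genes. Cdk9, the kinase subunit of P-TEFb, had 23.7 and 24.0 FPKM with JQ1, against 18.4 and 16.5 FPKM with DMSO (0.44 ± 0.05). Each JQ1 library exceeded each DMSO library. Mepce, the enzyme that caps 7SK RNA, rose by 0.52 ± 0.08, and Aff4, the scaffold of the super elongation complex, by 0.27 ± 0.04. Brd3 had a change of 0.08 ± 0.04 that did not pass the test (adjusted p = 0.10). Hexim2, the paralog of Hexim1, fell by 0.49 (SE 0.11).

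Histone genes, whose replication-dependent members make transcripts without poly(A) tails that rRNA-depleted libraries retain, formed the group with the highest median change among the 34 lists examined. Of 42 histone genes tested 30 rose and 5 fell (83.3% called, beside 56.0% of all genes), with a median of 0.77. The list was matched by symbol, so it leaves out hist1h2ail2 (1.37 ± 0.14), spelled in lower case, and any histone loci named otherwise. H2ax (chromosome 8, 48665652 to 48666981), the variant phosphorylated at DNA breaks, had 58.7 and 58.1 FPKM with JQ1, against 19.6 and 19.1 FPKM with DMSO (1.57 ± 0.05). Hist1h2bq (chromosome 17, 43679925 to 43689311) had 74.3 and 69.7 FPKM with JQ1, against 23.2 and 21.2 FPKM with DMSO (1.68 ± 0.04). H3f3a, which encodes the replication-independent histone H3.3, had 251 and 250 FPKM with JQ1, against 138 and 133 FPKM with DMSO (0.88 ± 0.05). In all 3 genes the groups were far apart and the replicates close. Summed over the 47 histone genes with a row, the level was 1701 and 1687 FPKM with JQ1, against 1087 and 1010 FPKM with DMSO. Many histone genes are near-identical copies that can share reads. Hist2h4, Hist1h4b and Hist1h2ao held equal values in all 4 libraries, so their fall of 0.42 on the log2 scale is 1 measurement. Which copy carried a rise is therefore uncertain. The largest rise of all among genes of at least 1 FPKM was that of a locus in the same stretch of chromosome 17 (43776050 to 43776460), 1 of 5 labelled LOC102548682. It had 108 and 102 FPKM with JQ1, against 21.2 and 21.5 FPKM with DMSO (2.27 ± 0.11).

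The promoters of the histone genes with the largest rises are shown because histone promoters are known for compact CCAAT and TATA elements. The 150 bases before the start are from RefSeq on the build GRCr8, 5′ to 3′ on the gene's strand. Capitals mark CCAAT or TATAAA on either strand, read as ATTGG or TTTATA on the opposite one. The letters of 1 motif do not overlap those of the other here.
Hist1h2bq, chr17:41869342-41869491, minus strand: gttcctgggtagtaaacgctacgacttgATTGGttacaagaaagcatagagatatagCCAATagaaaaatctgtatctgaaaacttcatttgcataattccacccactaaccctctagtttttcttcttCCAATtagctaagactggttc
H4f3, chr17:41980342-41980491, minus strand: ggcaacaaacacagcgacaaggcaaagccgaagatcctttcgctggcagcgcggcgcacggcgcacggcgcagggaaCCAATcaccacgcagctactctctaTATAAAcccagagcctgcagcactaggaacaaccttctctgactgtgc
H2ax, chr8:53568568-53568717, plus strand: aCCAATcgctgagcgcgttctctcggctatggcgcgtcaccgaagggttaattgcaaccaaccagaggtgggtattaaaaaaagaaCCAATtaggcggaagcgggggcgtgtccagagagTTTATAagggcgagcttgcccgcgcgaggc
Hexim1, chr10:88562739-88562888, plus strand: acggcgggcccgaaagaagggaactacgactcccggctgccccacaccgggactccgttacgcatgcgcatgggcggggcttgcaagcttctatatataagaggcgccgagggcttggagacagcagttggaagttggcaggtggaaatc

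The 3 histone promoters held 3, 1 and 2 CCAAT matches, and H4f3 and H2ax held 1 TATAAA match each. Hexim1, also shown, held neither exact set of letters in this window. Its sequence does include the similar letters TATATAAG, which the exact match does not count. In the full RefSeq windows of 250 bases before to 50 after the start, CCAAT on either strand was present in 27 of 31 histone promoters (87.1%), against 37.6% of the 9133 promoters matched among all genes tested. TATAAA was present in 18 of 31 (58.1%), against 6.43% of all. Among the 48 matched genes that rose by at least 1, TATAAA was found in 8 of 12 listed histone promoters and in 5 of 36 others (13.9%). The others may include histone loci left off the list. Of the histone promoters, 15 of the 23 whose genes rose and 3 of the 8 whose genes did not held TATAAA. Among the 327 matched genes that fell by at least 1, TATAAA was found in 12.2% and CCAAT in 28.1%. The GC box GGGCGG was found in 44.3% of these promoters, against 64.0% of all, and the cAMP response element TGACGTCA in 0.917%, against 3.26% of all. The AP-1 letters TGACTCA were found in 6.12% of them, against 2.95% of all, and the E-box CACGTG in 4.59%, against 9.66%. The interferon response element was found in 7.65%, against 2.58% of all, and the PU.1 letters GAGGAAGT in 5.5%, against 2.49%. These shares describe letters only, and no binding was measured.

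Myeloid genes fell furthest. Microglia are the resident macrophages of the brain, and small numbers persist in neuronal cultures. Of 20 microglia and myeloid markers tested 19 fell and none rose, with a median of −1.96 beside −0.02 for all genes. Their called share was 95%, beside 56.0% of all genes. Summed over the list, the level was 39.8 and 31.7 FPKM with JQ1, against 172 and 149 FPKM with DMSO. Fcer1g (chromosome 13, 89601896 to 89606326), a signalling chain of Fc receptors, had 3.24 and 2.82 FPKM with JQ1, against 26.6 and 25.7 FPKM with DMSO, a change of −2.92 ± 0.12 (limma adjusted p = 5.0e-11). Cx3cr1 (chromosome 8, 128740756 to 128754514), the fractalkine receptor, had 0.036 and 0.094 FPKM with JQ1, against 3.55 and 3.01 FPKM with DMSO (−2.74 ± 0.14). Both genes were lower in each JQ1 library by a wide margin. The complement gene C1qa had 4.12 and 2.93 FPKM with JQ1, against 22.5 and 19.1 FPKM with DMSO, and the lysosomal protein gene Cd68 had 4.32 and 3.85 FPKM against 23.7 and 21.2 FPKM. Itgam, an integrin chain, and Cd33, a sialic acid receptor, were listed at 0 in both JQ1 libraries, against 1.23 and 0.983 FPKM and 1.93 and 2.14 FPKM with DMSO. Most of the 20 largest falls by log2 change were genes known from myeloid cells, among them Fcrl2, Ccl6, Clec4a1, Folr2, Trem2, Laptm5 and Tyrobp. Others were not of that kind: Cryab, a small heat shock protein of glia and muscle, had 1.56 and 1.12 FPKM with JQ1, against 8.87 and 9.24 FPKM with DMSO (−2.39 ± 0.11). Gpr83, a neuronal receptor, had 0.431 and 0.463 FPKM with JQ1, against 4.52 and 4.14 FPKM with DMSO (−2.35 ± 0.09). In such bulk RNA fewer cells of a type and less RNA per cell cannot be told apart.

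Many inflammatory and interferon response genes also fell, while the summed levels of both lists, most of it Lcn2 in the one and B2m in the other, overlapped between the groups. The inflammatory sum was 516 and 435 FPKM with JQ1, against 520 and 494 FPKM with DMSO. The interferon sum was 113 and 94.4 FPKM with JQ1, against 124 and 112 FPKM with DMSO. Taken by replicate number each sum was lower with JQ1, but the labels do not say that the numbers pair cultures. None of 25 inflammatory and NF-kB genes rose and 18 fell (72% called, beside 56.0% of all genes), with a median of −0.58. The chemokine gene Ccl2 had 3.64 and 2.77 FPKM with JQ1, against 11.3 and 12.2 FPKM with DMSO (−1.73 ± 0.19). Vcam1, an adhesion molecule for leukocytes, had 5.32 and 4.31 FPKM with JQ1, against 12.4 and 10.4 FPKM with DMSO (−1.17 ± 0.13). Both genes lay lower in each JQ1 library. Lcn2, the most abundant member at 456 and 386 FPKM with JQ1 against 421 and 403 FPKM with DMSO, overlapped between the groups. Of 14 interferon response genes tested 8 fell and none rose, with a median of −0.55. Their called share of 57.1% was near the 56.0% of all genes, of which 30.6% fell. Mx2, an antiviral GTPase, fell by 1.76 on the log2 scale (SE 0.10) and Gbp2, an interferon-induced GTPase, fell by 1.5 (SE 0.11). The microglia markers given above moved with both lists, and their part in these changes was not tested.

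Some astrocyte markers fell. Of 16 astrocyte markers tested 8 fell and none rose, with a median of −0.27. Their called share of 50% was below that of all genes, of which 30.6% fell and 25.4% rose. The water channel gene Aqp4 had 15.9 and 11.9 FPKM with JQ1, against 61.3 and 50.7 FPKM with DMSO (−1.98 ± 0.18). Glul, glutamine synthetase, had 98.8 and 86.2 FPKM with JQ1, against 163 and 136 FPKM with DMSO (−0.69 ± 0.11). In contrast Gfap, the astrocyte intermediate filament, overlapped between the groups at 163 and 135 FPKM with JQ1 and 159 and 126 FPKM with DMSO. Of 14 oligodendrocyte lineage markers 3 rose and 5 fell, a called share of 57.1% that is near the 56.0% of all genes. Olig1, a lineage transcription factor, rose by 0.76 ± 0.14 and the myelin regulator Myrf fell by 0.89 on the log2 scale (SE 0.10). Among 18 matrix and fibroblast markers 9 fell and 2 rose (61.1% called), and the metalloprotease gene Mmp2 fell by 1.84 (SE 0.16). Only 4 of 16 endothelial and mural markers were high enough to test, and 1 of them fell, Myh11, by 0.44 (SE 0.11).

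**Figure D2:**
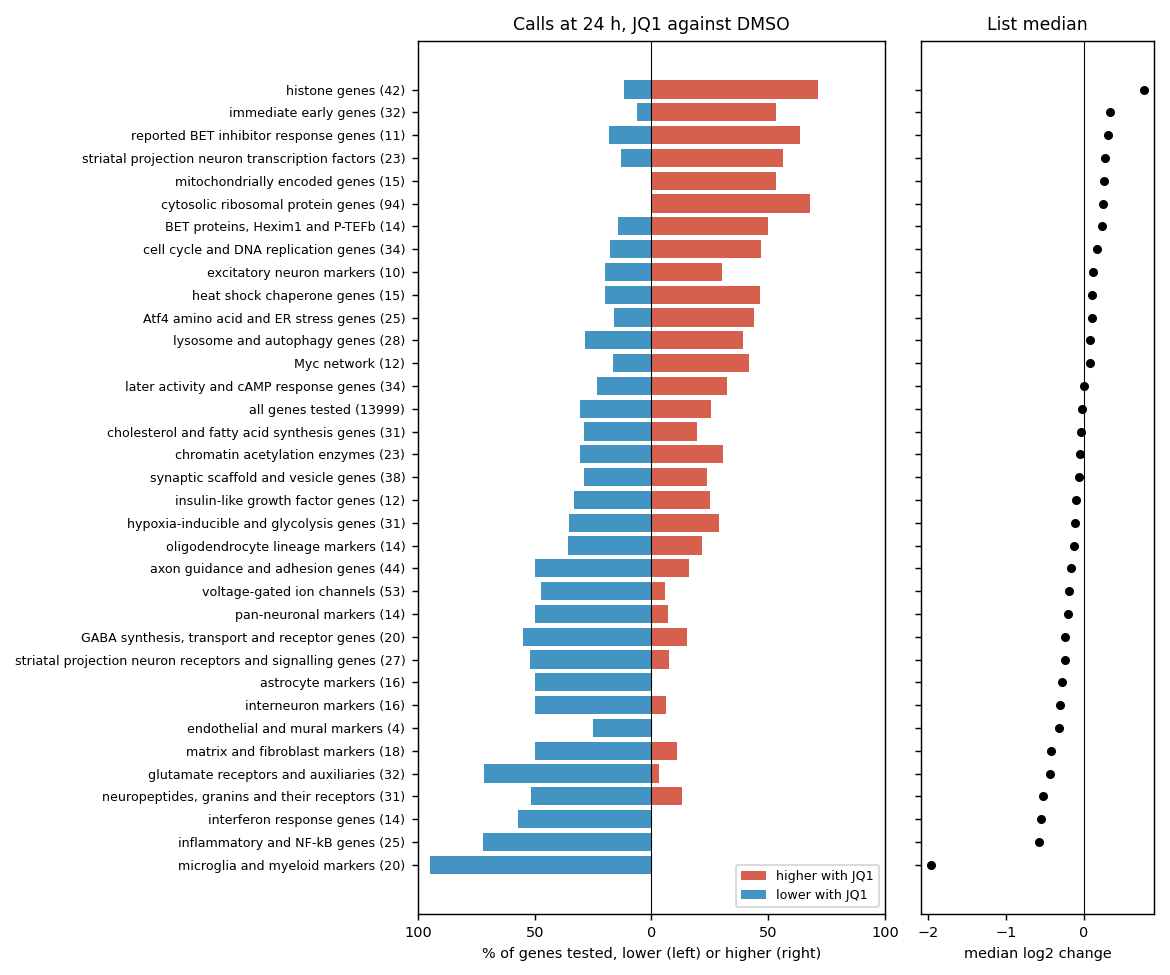
Share of the tested genes of each list (number in brackets) that were called lower (left, blue) or higher (right, red) with JQ1 at 24 h, and the median log2 change of the list. Histone genes have the highest median (0.77) and microglia and myeloid markers the lowest (−1.96), and all genes tested stand between at −0.02.

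Most glutamate receptor genes fell, though not those of every subunit. The 34 listed glutamate receptor and auxiliary genes included 32 that could be tested, of which 23 fell and 1 rose, with a median of −0.44. Their called share was 75%, beside 56.0% of all genes. Gria1 (chromosome 10, 42614713 to 42760200), the GluA1 subunit of AMPA receptors, had 59.9 and 62.7 FPKM with JQ1, against 110 and 109 FPKM with DMSO (−0.83 ± 0.04, limma adjusted p = 2.0e-10). Gria3, another AMPA subunit, had 5.06 and 5.54 FPKM with JQ1, against 10.4 and 12.2 FPKM with DMSO (−1.02 ± 0.08). Gria2, the subunit that makes AMPA receptors impermeable to calcium, had 74.7 and 77.9 FPKM with JQ1 and 72.3 and 79.0 FPKM with DMSO, and its groups overlapped. Gria1 and Gria3 were thus lower in every JQ1 library, while Gria2 showed no called change (0.01 ± 0.05). Among NMDA receptor subunits, Grin3a had 2.40 and 2.48 FPKM with JQ1, against 6.84 and 6.95 FPKM with DMSO (−1.33 ± 0.06). The obligatory subunit gene Grin1 did not pass the test (0.17 ± 0.08, adjusted p = 0.078). The kainate receptor genes Grik4 and Grik3 went opposite ways, Grik4 by −1.13 ± 0.07 and Grik3 by 0.29 ± 0.07. Cacng2, which encodes the AMPA receptor auxiliary stargazin, fell by 0.81 (SE 0.06).

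**Figure D3:**
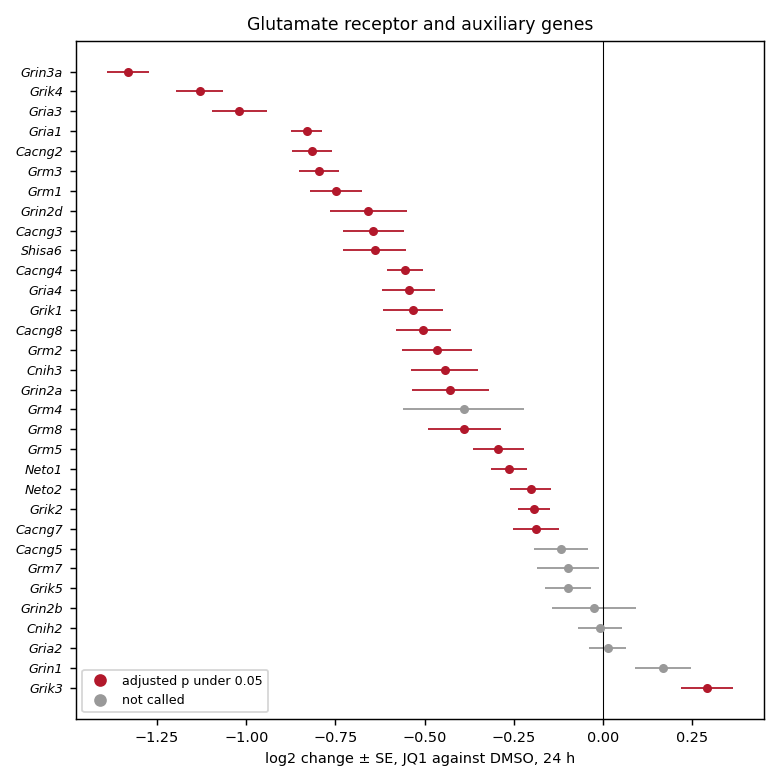
Log2 change with SE of the 32 glutamate receptor and auxiliary genes tested, JQ1 against DMSO at 24 h, red where the adjusted p is under 0.05. Grin3a lies lowest at −1.33, and Grik3, at 0.29, is the called gene to the right of 0.

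Signalling genes of projection neurons fell in part. Drd1 (chromosome 17, 11101306 to 11103541, 1 exon), the D1 receptor, had 5.50 and 6.76 FPKM with JQ1, against 13.1 and 14.1 FPKM with DMSO (−1.10 ± 0.09, limma adjusted p = 4.4e-08). Drd2, the D2 receptor, had 26.7 and 28.9 FPKM with JQ1 and 28.6 and 33.3 FPKM with DMSO, which overlapped (−0.15 ± 0.08, adjusted p = 0.11). The changes of Drd1 and Drd2 were not tested against each other. Adora2a, an adenosine receptor of D2 neurons, fell, with 26.6 and 30.3 FPKM with JQ1, against 52.1 and 63.3 FPKM with DMSO (−1.0 ± 0.11). A receptor typical of D1 neurons and one typical of D2 neurons were thus both lower in each JQ1 library. Ptpn5, the striatum-enriched phosphatase STEP, had 6.99 and 8.04 FPKM with JQ1, against 19.4 and 21.8 FPKM with DMSO (−1.40 ± 0.08). Rasgrp2, a Rap exchange factor, fell by 1.44 on the log2 scale (SE 0.15). Ppp1r1b, which encodes DARPP-32, overlapped at 62.6 and 77.2 FPKM with JQ1 and 70.3 and 76.3 FPKM with DMSO. Of 27 receptor and signalling genes of projection neurons 14 fell and 2 rose, with a median of −0.24. Their called share was 59.3%, beside 56.0% of all genes. Transcription factors of the same neurons went mostly the other way: 13 of 23 rose and 3 fell (69.6% called), with a median of 0.27. Dlx6, a homeobox gene of GABAergic development, had 33.5 and 34.1 FPKM with JQ1, against 21.4 and 21.4 FPKM with DMSO (0.65 ± 0.06), and Rxrg, a retinoid receptor, fell by 0.76 (SE 0.07).

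Peptide and peptide receptor genes gave 16 falls and 4 rises among 31 tested, with a median of −0.53. Their called share was 64.5%, beside 56.0% of all genes, of which 30.6% fell. Oprl1, the nociceptin receptor, had 3.13 and 3.08 FPKM with JQ1, against 10.2 and 10.8 FPKM with DMSO (−1.60 ± 0.10). Npy1r, a neuropeptide Y receptor, had 4.75 and 4.43 FPKM with JQ1, against 11.6 and 12 FPKM with DMSO (−1.28 ± 0.09). Pdyn, the dynorphin precursor of D1 neurons, had 5.06 and 5.58 FPKM with JQ1, against 10.6 and 11.7 FPKM with DMSO (−1.0 ± 0.08). All 3 were lower in each JQ1 library. Penk, the enkephalin precursor of D2 neurons, overlapped at 111 and 139 FPKM with JQ1 and 99.7 and 127 FPKM with DMSO. Vgf, a secreted granin, rose, with 11 and 15.7 FPKM with JQ1, against 5.14 and 4.65 FPKM with DMSO (1.34 ± 0.13).

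Interneuron markers fell for some classes. Of 16 tested 8 fell and 1 rose, with a median of −0.31. Their called share of 56.25% was near the 56.0% of all genes, of which 25.4% rose and 30.6% fell. Shares were also near it for ion channels (52.8%) and for general neuronal (57.1%), excitatory (50%) and synaptic genes (52.6%). They were higher for the GABA (70%) and axon guidance genes (65.9%). Calb2, the calcium buffer calretinin, had 4.19 and 3.40 FPKM with JQ1, against 12.1 and 12.7 FPKM with DMSO (−1.60 ± 0.10). Htr3a, a serotonin-gated channel, fell by 1.71 on the log2 scale (SE 0.08). Sst, the somatostatin gene, overlapped at 245 and 228 FPKM with JQ1 and 243 and 237 FPKM with DMSO. Among 20 GABA genes 11 fell and 3 rose, and Gabra3, a GABA-A receptor subunit, fell by 0.73 (SE 0.06). Of 53 voltage-gated ion channel genes 25 fell and 3 rose, with a median of −0.19, and the sodium channel gene Scn3a had 20.7 and 20.5 FPKM with JQ1, against 31.0 and 30.8 FPKM with DMSO (−0.57 ± 0.04). Of 44 axon guidance and adhesion genes 22 fell and 7 rose, and Cntn6, a contactin, fell by 1.03 (SE 0.09). General neuronal markers shared in this, with 7 falls and 1 rise among 14. Tubb3, neuronal tubulin, had 366 and 368 FPKM with JQ1, against 514 and 547 FPKM with DMSO (−0.53 ± 0.05). Snap25, a vesicle fusion protein, overlapped at 218 and 235 FPKM with JQ1 and 206 and 240 FPKM with DMSO. Of 10 excitatory neuron markers 3 rose and 2 fell, or 0 and 2 on FPKM as deposited. The 38 synaptic scaffold and vesicle genes gave 9 rises and 11 falls, with Syn3, a synapsin, falling by 0.64 (SE 0.05) and Nlgn2, the neuroligin of inhibitory synapses, rising by 0.42 (SE 0.05).

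Immediate early genes, which neurons transcribe quickly after activity, were more often higher. Of 32 tested 17 rose and 2 fell, with a median of 0.34 (15 and 4 on FPKM as deposited). The called share of 59.4% was near the 56.0% of all genes, of which 25.4% rose. Fos had 12.9 and 12.4 FPKM with JQ1, against 5.79 and 5.13 FPKM with DMSO (1.14 ± 0.17). Jun, its AP-1 partner, had 35.6 and 33.7 FPKM with JQ1, against 18.0 and 16.2 FPKM with DMSO (1.0 ± 0.05). The groups were apart for both. Jund, a further AP-1 gene, rose by 0.72 ± 0.05, while Fosl1 fell by 0.62 (SE 0.18) and Klf4, a zinc finger factor, fell by 0.52 (SE 0.14). Nr4a3, an orphan nuclear receptor, had 11.4 and 12.6 FPKM with JQ1, against 4.34 and 4.02 FPKM with DMSO (1.42 ± 0.10). Arc, which acts at synapses in plasticity, had 1.79 and 1.91 FPKM with JQ1 and 1.92 and 2.52 FPKM with DMSO (−0.20 ± 0.23, adjusted p = 0.47). Bdnf, a neurotrophin, rose at a low level, with 0.770 and 0.961 FPKM with JQ1, against 0.220 and 0.306 FPKM with DMSO (0.84 ± 0.17). The later activity and cAMP response list, of 34 genes, had 11 rises and 8 falls (55.9% called, beside 56.0% of all genes).

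Growth and biosynthesis genes changed in both directions. Among 94 cytosolic ribosomal protein genes 64 rose and none fell (68.1% called, beside 56.0% of all genes), with a median of 0.25. On FPKM as deposited 39 rose and none fell. Rps2 had 812 and 776 FPKM with JQ1, against 520 and 485 FPKM with DMSO (0.66 ± 0.05), although ribosomal protein genes have many processed copies that can share reads. Of 15 mitochondrially encoded genes 8 rose (53.3% called, beside 56.0% of all genes), or 4 on FPKM as deposited, and none fell. Among them Mt-cyb, Mt-co1, Mt-nd4 and Mt-nd4l each lost the call when DMSO replicate 5 was left out, and likewise on leaving out either JQ1 library. Without DMSO replicate 5 the change of Mt-cyb was 0.18, against 0.33 with all libraries, and that of Mt-nd4 was 0.18, against 0.31. Leaving out JQ1 replicate 5 or 6 kept these changes near their full size, at 0.32 or 0.34 for Mt-cyb and 0.33 or 0.30 for Mt-nd4. The cell cycle list gave 16 rises and 6 falls among 34 genes (64.7% called, beside 56.0% of all genes). Pcna, the replication clamp, had 33.6 and 32.8 FPKM with JQ1, against 22.2 and 21.6 FPKM with DMSO (0.59 ± 0.05). Aurkb, a mitotic kinase, had 2.76 and 2.78 FPKM with JQ1, against 0.815 and 0.857 FPKM with DMSO (1.29 ± 0.13). Both were higher in each JQ1 library, and the inhibitor of cyclin-dependent kinases Cdkn1a fell by 0.91 on the log2 scale (SE 0.14). Myc, a BET-dependent gene in many tumour cells, had 11.1 and 10.2 FPKM with JQ1, against 13.9 and 14.6 FPKM with DMSO (−0.41 ± 0.08), and 5 of the 12 genes of its network rose while 2 fell, a called share of 58.3% that is near the 56.0% of all genes.

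Among metabolic and stress lists, single genes stood out more than the lists. Igfbp5 (chromosome 9, 80150211 to 80167033), an IGF-binding protein, had 3.63 and 3.47 FPKM with JQ1, against 15.4 and 17.7 FPKM with DMSO (−2.07 ± 0.08). Igfbp4 had 15.8 and 17.1 FPKM with JQ1, against 43.4 and 49.8 FPKM with DMSO (−1.47 ± 0.09). Both were far lower with JQ1, whereas the list of 12 insulin-like growth factor genes gave 3 rises and 4 falls. The called share of that list was 58.3%, beside 56.0% of all genes. Acss2, which makes acetyl-CoA from acetate, had 11.1 and 11.1 FPKM with JQ1, against 5.28 and 5.31 FPKM with DMSO (1.0 ± 0.07), and Srebf1, a regulator of lipid synthesis, fell by 0.74 on the log2 scale (SE 0.06). The cholesterol and fatty acid list as a whole gave 6 rises and 9 falls among 31 (48.4% called). Of 31 hypoxia-inducible and glycolysis genes 9 rose and 11 fell (64.5% called), and Ndrg1 fell by 1.60 (SE 0.10). The lysosome and autophagy list gave 11 rises and 8 falls among 28 (67.9% called). The lysosomal channel gene Mcoln1 rose by 0.77 (SE 0.05) and the protease gene Ctsz fell by 2.11 (SE 0.18). Of 25 Atf4 and endoplasmic reticulum stress genes 11 rose and 4 fell (60% called), or 6 and 6 on FPKM as deposited. Sesn2 rose by 0.78 (SE 0.07). Of 15 heat shock chaperone genes 7 rose and 3 fell (66.7% called), or 3 and 3 on FPKM as deposited. The small heat shock genes Hspb1 and Hspb8 were among the falls, by 1.52 (SE 0.21) and 1.18 (SE 0.12). The 23 chromatin acetylation enzymes divided evenly, 7 up and 7 down (60.9% called), and Hdac3, a class I deacetylase, rose by 0.39 (SE 0.05). These called shares stand beside 56.0% of all genes.

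Some further large rises lay outside the lists. Akap13 (chromosome 1, 137014272 to 137315272), an anchor of protein kinase A, had 5.12 and 5.24 FPKM with JQ1, against 1.11 and 1.05 FPKM with DMSO (1.85 ± 0.08). Cd320, the receptor for transcobalamin, had 14.3 and 14.4 FPKM with JQ1, against 5.03 and 4.15 FPKM with DMSO (1.55 ± 0.09). Entpd5, a nucleotidase of the endoplasmic reticulum, had 11.9 and 11.3 FPKM with JQ1, against 3.94 and 4.26 FPKM with DMSO (1.40 ± 0.07). Tdp1, a DNA repair phosphodiesterase, had 7.04 and 7.17 FPKM with JQ1, against 2.29 and 2.50 FPKM with DMSO (1.39 ± 0.09). The rule that named these genes required groups that did not overlap, so their separation is no added result.

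Calls differed in frequency with a gene's level and length. Of the 1823 genes under 1 FPKM on average 8.17% rose and 41.3% fell, while of the 513 genes at 100 FPKM or more 39.0% rose and 14.6% fell. Of the 335 genes spanning 300 kb or more 13.4% rose and 44.5% fell, against 25.9% and 26.6% of the 4674 genes under 10 kb. Genes with 1 exon rose in 26.4% and fell in 16.5% of cases. These are counts of calls in strata, and no test was made between strata. A gene could pass the filter (0.5 FPKM in any 2 of the 23 libraries) through groups other than JQ1 at 24 h. The filter itself can therefore favour falls among low genes, and that contrast is no result about gene level.

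The same inhibitor and time were measured in 4 other libraries of the experiment, with SKF in both arms. SKF plus JQ1 against SKF gave 7835 calls (56.0%), 3581 higher (25.6%) and 4254 lower (30.4%), and 75 rises (0.536%) and 494 falls (3.53%) reached 1 on the log2 scale. Of the 3553 genes that rose with JQ1 alone 2957 also rose there (83.2% of these rises and 82.6% of those with SKF). Of the 4289 that fell 3640 also fell (84.9% and 85.6%). No gene was called in opposite directions. Of the 528 falls of at least 1, 514 were called lower there too (97.3%), as 76 of the 78 large rises were called higher (97.4%). Across the 13999 genes the 2 sets of changes had a Pearson correlation of 0.91, a description over genes that are not independent replicates. Hexim1 rose by 1.62 ± 0.09 there, Drd1 fell by 1.37 on the log2 scale (SE 0.09), and Fcer1g fell by 3.74 (SE 0.12). A test of the difference itself, the change with SKF minus the change without it, called 5 genes of 13999 (0.0357%), 3 with a more positive change (0.0214%) and 2 with a more negative one (0.0143%), and 803 had an unadjusted p under 0.05 (5.74%). With 1 library left out the count was between 3 and 8, with 3 called when either DMSO library was left out. This split depended on the pseudocount: it was 2 more positive and 5 more negative with a pseudocount of 0.1, and 1 and 3 with limma voom. Cx3cr1, Fcgr3a and Ltc4s, with a more positive difference at the pseudocount of 0.5, were near 0 in the JQ1 libraries of both arms and lower in SKF than in DMSO libraries, so their differences rest on this floor and are no measure of a weaker fall. Cx3cr1 had 0 and 0.0353 FPKM in SKF plus JQ1 and 0.868 and 0.704 FPKM in SKF libraries, beside 3.55 and 3.01 FPKM in DMSO libraries (difference 1.43 ± 0.20, adjusted p = 0.0088). Summed microglia markers were 18.2 and 16.8 FPKM in SKF plus JQ1 libraries and 91.6 and 71.7 FPKM in SKF libraries.

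**Figure D4:**
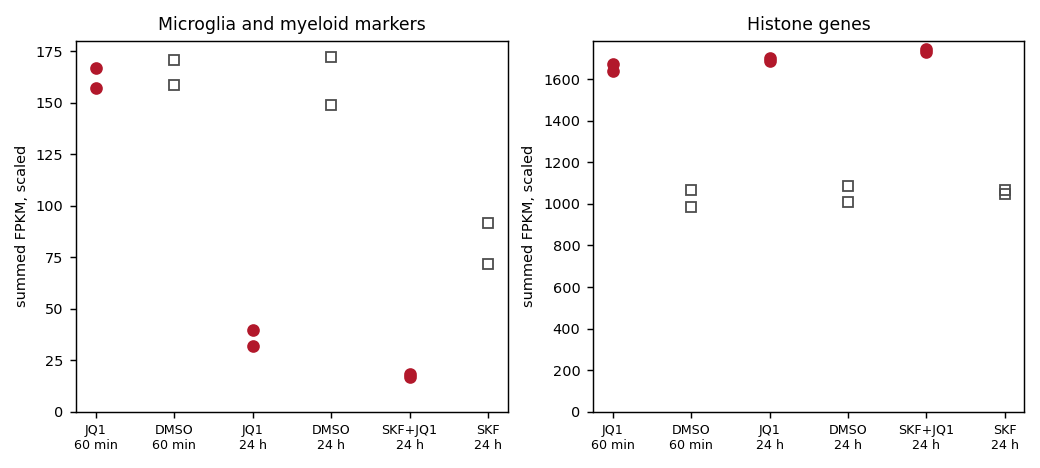
Summed FPKM (scaled) of the microglia and myeloid markers and of the histone genes, 1 point per library, filled circles with JQ1 and open squares without. Histone genes stand higher with JQ1 in each pair of groups, while the microglia markers are lower with JQ1 at 24 h and overlap at 60 min.

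Finally, the 24 h response was set against that at 60 min, each relative to the DMSO libraries of its own experiment. At 60 min 618 genes were called (4.41%), 256 higher (1.83%) and 362 lower (2.59%), with 37 rises (0.264%) and 7 falls (0.05%) reaching 1 on the log2 scale. For JQ1 alone against DMSO, 60 min, the number called was 323 without JQ1 replicate 5, 397 without JQ1 replicate 6, 362 without DMSO replicate 6 and 391 with that experiment fitted alone. Of the 256 early rises 216 were also higher at 24 h (84.4%, or 6.08% of the rises at 24 h) and 7 were lower. Of the 362 early falls 208 were also lower at 24 h (57.5%, or 4.85% of the falls at 24 h), 26 were higher and 128 were not called. Across genes the changes at the 2 times had a Pearson correlation of 0.30. Of the 78 large rises at 24 h 34 were already called higher at 60 min (43.6%), against 25 of the 528 large falls called lower (4.73%). Histone genes gave 30 rises at each time among 42, of which 23 were shared. Hexim1 had 15.7 and 15.1 FPKM with JQ1 at 60 min, against 7.06 and 5.62 FPKM with DMSO (1.22 ± 0.09), and Drd1 had 5.42 and 5.4 FPKM against 11.7 and 11.2 FPKM (−1.01 ± 0.09). None of the 20 microglia markers, 32 glutamate receptor genes or 94 ribosomal protein genes was called at 60 min. Only 4.41% of all genes were called then, so an absence of calls in short lists is no distinct trait of them. The microglia sum was 157 and 167 FPKM with JQ1 at 60 min, against 171 and 158 FPKM with DMSO.

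The test of the difference between times called 5067 genes (36.2%), 2125 with a more positive change at 24 h (15.2%) and 2942 with a more negative one (21.0%). Time and experiment cannot be told apart here. Akap13 had 0.911 and 0.990 FPKM with JQ1 at 60 min, against 1.13 and 1.19 FPKM with DMSO, and the difference between its changes was 2.05 ± 0.12 (limma adjusted p = 4.3e-09). Myc had 7.33 and 6.88 FPKM with JQ1 at 60 min, against 17.1 and 19.3 FPKM with DMSO, so its early change of −1.30 ± 0.08 was the larger in size. The difference between its changes was 0.89 ± 0.12 (adjusted p = 2.1e-05). Nr4a3 had unlike DMSO levels in the experiments, 27.4 and 29.7 FPKM at 60 min and 4.34 and 4.02 FPKM at 24 h. Relative to these it was lower with JQ1 at 60 min (21.1 and 21.7 FPKM) and higher at 24 h (11.4 and 12.6 FPKM). Jcad, a junction protein gene, likewise changed by −0.62 ± 0.10 at 60 min and by 0.42 ± 0.10 at 24 h. The opposite order held for the mitotic kinase gene Plk3, with 0.38 ± 0.08 at 60 min and −0.40 ± 0.08 at 24 h. In contrast Hexim1, Txnip and Drd1 had differences between times that did not pass the test (adjusted p = 0.19, 0.34 and 0.66).

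**Figure D5:**
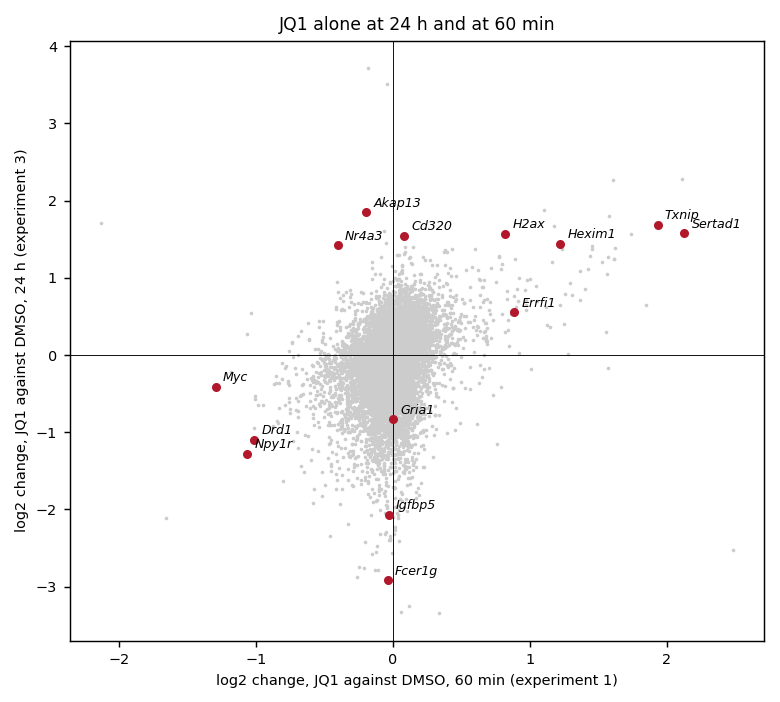
Log2 change with JQ1 alone at 60 min (x axis) and at 24 h (y axis) for the 13999 genes tested (grey), with 14 named genes in red. Hexim1, Txnip and Sertad1 lie high on both axes and Drd1 low on both, while Fcer1g, Igfbp5 and Gria1 are low at 24 h and near 0 at 60 min.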

How the data were processed

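The deposited tables hold transcript FPKM as computed by the authors, and the deposited coverage signal per transcript, for 41078 transcripts of 32883 genes in each of 23 libraries. The submitters' processing notes name Trim Galore, FastQC, STAR, StringTie and DESeq2, without versions, and the build Rnor_6.0. Libraries were stranded, per the labels' protocols. How strand entered the counting: not given in the sources used here. Overlapping or antisense genes are uncertain for that reason.

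FPKM were summed by gene, divided by a median-ratio size factor (0.954 to 1.07) and taken as log2(FPKM + 0.5), a scale that understates changes of low genes. Genes needed at least 0.5 FPKM in at least 2 libraries and a transcript of at least 200 nucleotides. limma 3.58.1 in R 4.3.3 (trend, robust, two-sided) fitted 1 mean per group to all 23 libraries (11 residual degrees of freedom), since 2 against 2 alone leaves few, with 1 SKF plus iBD2 library assumed to vary like the others. The fit was also run on simulated data in which few genes changed, about evenly up and down. That setting cannot test the size factors where many genes change, as here. Aligned bases were derived from coverage and FPKM, and depth sets how well low genes are measured. No count model was used, as FPKM are not counts.

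The 34 gene lists, the comparison and the rules were chosen with earlier results of these data known, and no set test was made. Named genes are the 20 largest rises and 20 largest falls (mean of at least 1 FPKM, no overlap), up to 5 genes per list by smallest p, a few fixed genes such as Hexim1 and Drd1, and the 10 largest differences between times each way. Genes chosen after seeing their values are Gad1, Gria2, Gria3, Grin1, Grik3, Adora2a, Penk, Sst, Snap25, Gfap, Lcn2, Itgam, Arrdc4, Hexim2, Cdkn1a, Jund, Fosl1, Klf4, Myh11 and those that changed in opposite directions at the 2 times. Some genes the rule takes are not reported here. Of 13783 tested genes with a unique symbol 9133 matched a RefSeq promoter (GRCr8). The fit was repeated on FPKM as deposited, with a pseudocount of 0.1 or 1, without the filter, with a replicate block, within each experiment, on the 4 libraries only, by limma voom on coverage-derived reads, and with single libraries removed.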

Additional observations from a re-analysis of the deposited data

Results flagged for a closer look

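The JQ1 change at 24 h differed with SKF present from that without it for 5 genes by the test of the difference (limma, adjusted p under 0.05). The differences, with SKF minus without, were 1.79 ± 0.19 for Fcgr3a, 1.43 ± 0.20 for Cx3cr1, 1.38 ± 0.23 for Ltc4s, −0.76 ± 0.11 for Igf1 and −1.28 ± 0.16 for AABR07017159.1. The balance of 3 positive and 2 negative differences was 2 and 5 with a pseudocount of 0.1 and 1 and 3 with limma voom. Fcgr3a, Cx3cr1 and Ltc4s were at or near 0 in both JQ1 arms, so the size of their differences depends on the pseudocount and on the lower level in the SKF libraries. Igf1, a growth factor, had 3.41 and 3.37 FPKM in SKF plus JQ1 libraries, against 12.5 and 11.2 FPKM in SKF libraries, and 4.07 and 4.54 FPKM with JQ1 alone, against 8.50 and 8.44 FPKM with DMSO. AABR07017159.1 was listed at 0 in both SKF plus JQ1, both JQ1 and both DMSO libraries, and had 0.592 and 0.847 FPKM in the SKF libraries. In that experiment it passed the filter on low values only through the SKF group, and JQ1 alone had no change to measure, so its difference is no result about JQ1 alone. Fcgr3a, an Fc receptor, had 0.0256 and 0.0178 FPKM in SKF plus JQ1 libraries, against 0.256 and 0.249 FPKM in SKF libraries, and 0.0862 and 0 FPKM with JQ1 alone, against 2.41 and 2.01 FPKM with DMSO. Ltc4s was listed at 0 in both SKF plus JQ1 and both JQ1 libraries.

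The change at 24 h differed from that at 60 min for 5067 genes. The most positive differences (24 h minus 60 min, log2) among named genes were 2.05 for Akap13, 1.83 for Nr4a3, 1.47 for Cd320, 1.36 for Kcnab3, 1.36 for AC128900.1, 1.34 for 1 of the many copies labelled 7SK, 1.31 for Tdp1, 1.28 for Adcyap1, 1.26 for Hlf and 1.25 for Nfs1. The most negative were −3.38 for Fcrl2, −2.88 for Fcer1g, −2.67 for Ifitm3, −2.65 for Ccl6, −2.61 for Tmem270, −2.56 for Cd4, −2.54 for Clec4a1, −2.49 for Cx3cr1, −2.46 for C1qa and −2.43 for Sla. For Myc the difference was 0.89.

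Of the genes called at both times 26 were lower at 60 min and higher at 24 h, and all 26 passed the test of the difference. After Nr4a3 the largest differences were those of Jcad (1.04), Gmeb2 (1.0), RGD1309028 (0.99) and AABR07052897.2 (0.98). The reverse, higher at 60 min and lower at 24 h, held for 7 genes. They were Plk3 (−0.78), Srsf2 (−0.56), Srsf3 (−0.52), Pcf11 (−0.35), and Hist1h4b, Hist1h2ao and Hist2h4, whose equal values gave −0.86 each.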

How the results depend on the processing

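The number of genes called for JQ1 alone at 24 h lay between 6508 and 7966 when 1 library at a time was left out, and between 6806 and 8219 under the other alternatives, against 7842. No called gene turned sign on FPKM as deposited, and 3 did with limma voom. SKF plus JQ1 against SKF gave 6471 to 7949 calls with 1 library left out. The difference with and without SKF gave 3 to 8 calls with 1 library left out, 11 with no filter and 1 with experiment 3 fitted alone, against 5. JQ1 alone against DMSO, 60 min, gave 323 to 647 calls with 1 library left out, the lowest without JQ1 replicate 5 (362 without DMSO replicate 6, 397 without JQ1 replicate 6), and 391 with experiment 1 fitted alone, against 618. The difference between times gave 4051 to 5123. With the replicate number as a block, 8043 genes were called at 24 h, 644 at 60 min and 4 for the difference with SKF. Same-numbered libraries of experiment 3 correlated in their deviations at −0.23 to 0.37, and the numbers were not taken to pair the cultures. Summed lists did share a pattern by number. In every group of experiment 3 replicate 5 exceeded replicate 6 for astrocyte, matrix, inflammatory and microglia sums, and was lower for general neuronal markers. Pairing is thus not excluded, and overlap between groups was judged without it.

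Of 200 named genes called at 24 h 10 lost the call under some alternative, and none of them turned sign. Among the list medians, that of later activity genes was −0.0631 on FPKM as deposited and −0.0104 to 0.0437 with 1 library left out, the lowest without JQ1 replicate 6. With 1 library left out, that of chromatin acetylation enzymes was −0.0575 to 0.0193 and that of synaptic scaffold genes −0.116 to 0.0214, both highest without DMSO replicate 6, and that of excitatory markers −0.0474 to 0.209, the lowest without JQ1 replicate 6. Tagln, not called, was at −0.0403 on FPKM as deposited and at −0.166 to 0.218 with 1 library left out. With 1 library left out, Ppp1r1b, not called, was at −0.226 to 0.075 and 7SK at −0.0305 to 0.582. The cause was not tested. Low genes are limited by depth, and with 2 libraries per group the spread is shared across groups.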
